A study of Homo sapiens with 6 samples.

Results

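The genes examined were 10 negative regulators of JAK-STAT signaling, namely SOCS1 to SOCS7, CISH, PIAS1 and PIAS3, chosen by name, out of 60612 genes in the deposited tables. All 10 were found once by symbol and were listed above 0 in each of 6 libraries. RNA sequencing was performed on HCT116, a cell line from a human colorectal carcinoma. A control lentivirus, LV-NC, had been given to the cells of 3 libraries, and LV-SNORA28, which overexpresses the small nucleolar RNA SNORA28, to those of the other 3, with collection 72 h after infection. All groups therefore share 1 cell line and lentiviral infection, and whether the libraries of a group came from separate cultures is not given by the labels, so p-values measure the spread between these libraries only. FPKM values divide the fragments of a gene by its length and by the size of the library, so levels of different genes can be set side by side.

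Cytokine receptors signal by activating JAK kinases, which phosphorylate STAT transcription factors. The suppressors of cytokine signaling (SOCS1 to SOCS7 and CISH) carry an SH2 domain that binds phosphorylated receptors or kinases and a SOCS box that recruits elongins and cullin 5, so that bound proteins are ubiquitinated. Several of them are themselves transcribed in response to STATs and so close a negative feedback loop. The PIAS proteins act later, in the nucleus, where they bind activated STATs and also serve as SUMO ligases.

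The targeted RNA was checked first. SNORA28 read 0.92, 0 and 0.64 FPKM with LV-NC, and 15.01, 13.66 and 15.2 FPKM with LV-SNORA28, in the direction of the labels. The sum of FPKM per library ran from 306048 to 374676, of which mitochondrially encoded genes took between 42.7% and 47.7% in LV-NC and between 35.9% and 38.3% in LV-SNORA28. Of 8 epithelial markers, 6 had a mean of at least 1 FPKM, and VIL1 and LGALS4 did not. Of the markers of other cell types, COL1A1 (1 of 6 fibroblast genes) and CD68 (1 of 6 leukocyte genes) reached that mean, whereas the pan-leukocyte gene PTPRC was at most 0.08 FPKM and DCN and LUM were listed at 0 throughout. The summed leukocyte markers ran from 1.19 to 2.49 FPKM in LV-NC and from 2.62 to 4.14 FPKM in LV-SNORA28. CD68 carried this sum, with 2.07, 2.06 and 0.95 FPKM under LV-NC, against 2.27, 4.12 and 3.14 FPKM under LV-SNORA28, whereas PTPRC was listed at 0 in all LV-SNORA28 libraries. The part of CD68 in the results was not tested.

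The promoters of 2 members are shown because they hold letters known from the binding sites of the factors that these inhibitors restrain. RefSeq windows of 300 bases (GRCh38.p14), from 250 bases before to 50 bases after an annotated start, were matched for 7 of the 10 members, with SOCS2, SOCS5 and SOCS7 not matched. They were searched on both strands for TTCNNNGAA, the palindromic letters of a STAT dimer site, and for the core of the interferon-stimulated response element. The window of CISH held 4 copies of TTCNNNGAA, which start 241, 230, 129 and 112 bases upstream of the start. Of all 35116 promoter windows of that length, 7.66% held at least 1 copy and 7 windows (0.0199%) held 4 or more. The window of SOCS1 held 1 copy of that core, starting 113 bases upstream, against 3.57% of all windows. Neither motif was found in the windows of the 5 other matched members, and the matches in the lines below do not overlap one another. For SOCS3 (chr17:78360876-78361175 and chr17:78359618-78359917) and PIAS3 (chr1:145859032-145859331) the windows miss the outermost GENCODE starts, 78360077 and 145859836. The sequence just before those starts was therefore not searched, and a motif there is not excluded. The stretch of CISH lies at chr3:50611875-50612024 and that of SOCS1 at chr16:11256255-11256404, both on the minus strand and upstream of the start, with the motif matches in capitals.
CISH: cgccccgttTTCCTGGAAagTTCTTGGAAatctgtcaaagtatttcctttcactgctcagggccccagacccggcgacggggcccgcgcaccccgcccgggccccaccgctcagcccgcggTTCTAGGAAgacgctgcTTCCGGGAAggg
SOCS1: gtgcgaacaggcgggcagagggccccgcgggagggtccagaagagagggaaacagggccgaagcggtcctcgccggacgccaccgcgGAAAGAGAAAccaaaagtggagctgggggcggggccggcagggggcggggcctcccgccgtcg
A match describes these letters only and is not a measured binding site.

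In the control cells the inhibitors spanned a wide range of mRNA levels. SOCS6 was the most abundant member at 13.9 ± 1.51 FPKM (SD, n = 3), followed by SOCS3 at 8.13 ± 0.469 FPKM and PIAS3 at 7.54 ± 0.541 FPKM. SOCS4 had 4.63 ± 0.631 FPKM, PIAS1 3.67 ± 0.191 FPKM and SOCS5 3.06 ± 0.403 FPKM (SD, n = 3). The lowest levels were those of SOCS2 (1.83 ± 0.738), SOCS7 (1.13 ± 0.346), CISH (0.98 ± 0.07) and SOCS1 (0.953 ± 0.116 FPKM; SD, n = 3). The LV-NC ranges of SOCS3 and PIAS3 overlapped, as did those of each pair of neighbors in the order SOCS5, SOCS2, SOCS7, CISH and SOCS1. The ranges of the other neighbors in the order of levels did not overlap. By their mean over the 6 libraries, SOCS6 ranked above 92.2% and SOCS1 above 60.5% of all genes listed above 0 in any library.

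**Figure D1:**
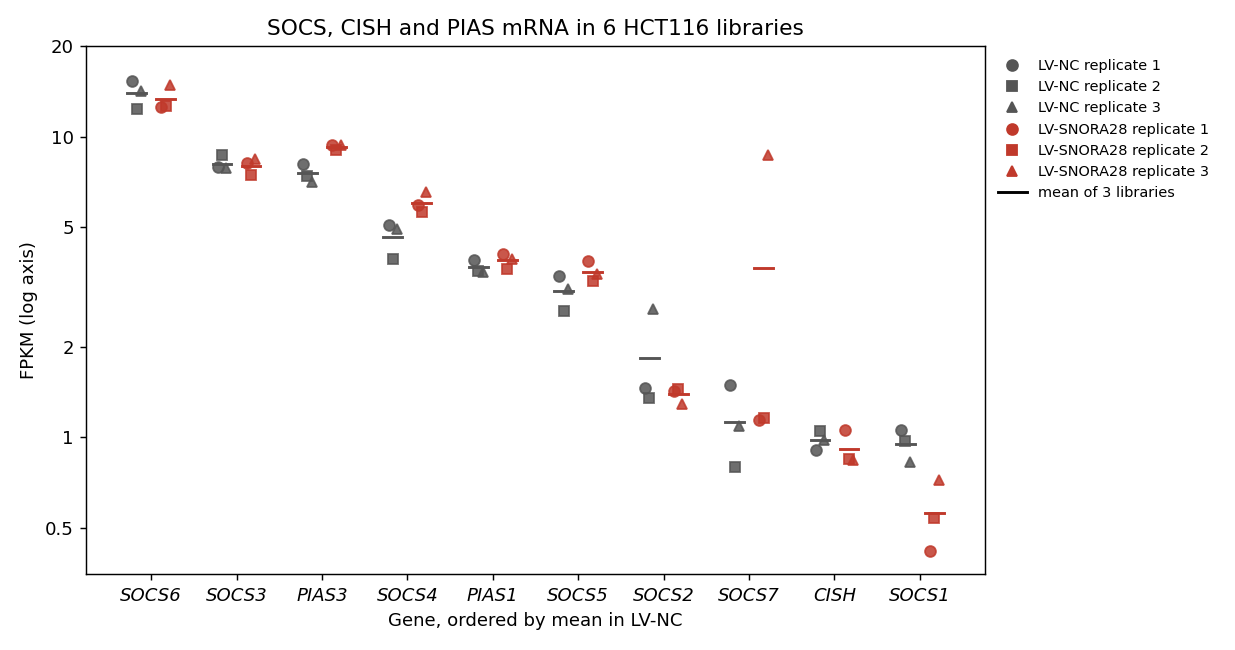
FPKM of the 10 inhibitors (vertical axis, log scale) in each library, with gray for LV-NC, red for LV-SNORA28, a symbol per replicate and bars for group means. The groups do not overlap for PIAS3, SOCS4 and SOCS1, and SOCS7 in LV-SNORA28 replicate 3 lies at 8.66 FPKM, far from the other 5 libraries.

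None (0) of the 10 inhibitors passed an adjusted p below 0.05 in limma after SNORA28 overexpression. Of the 12076 genes whose mean reached 1 FPKM, 8.91% passed, 6.81% higher and 2.1% lower. That fit tested 8 of the 10 members. SOCS1 and CISH, whose means were below 1 FPKM, were read from a second fit with no filter on 32761 genes, in which 1.21% passed, 0.934% higher and 0.278% lower. Before adjustment, 3 members had a p below 0.05, namely PIAS3 and SOCS4, which were higher, and SOCS1, which was lower in LV-SNORA28. The background was 28.0% of genes (22.0% higher, 6.08% lower) in the filtered fit and 14.5% (11% higher, 3.48% lower) in the other. Those 3 members were also the ones whose groups did not overlap, against 35.1% of genes (27.0% higher, 8.16% lower) with the filter and 18.9% (14.2% higher, 4.73% lower) without it. The study combined a p below 0.05 with a change of more than 1.5 times and does not say whether that p was adjusted. Its threshold was read here with an unadjusted p from limma. On the log2(FPKM + 1) scale used here, which the study does not state for its own folds, no member (0) met this. Of the genes, 3.79% met it with the filter (2.58% higher, 1.22% lower) and 1.48% without it (0.995% higher, 0.482% lower). All fold changes were taken after adding 1 FPKM, so those of low genes are understated. Of the members, 5 lay above 0 and 5 below, with a median log2 fold change of 0.02, whereas the median was 0.09 over the genes of the filtered fit and 0.02 over those of the other.

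**Figure D2:**
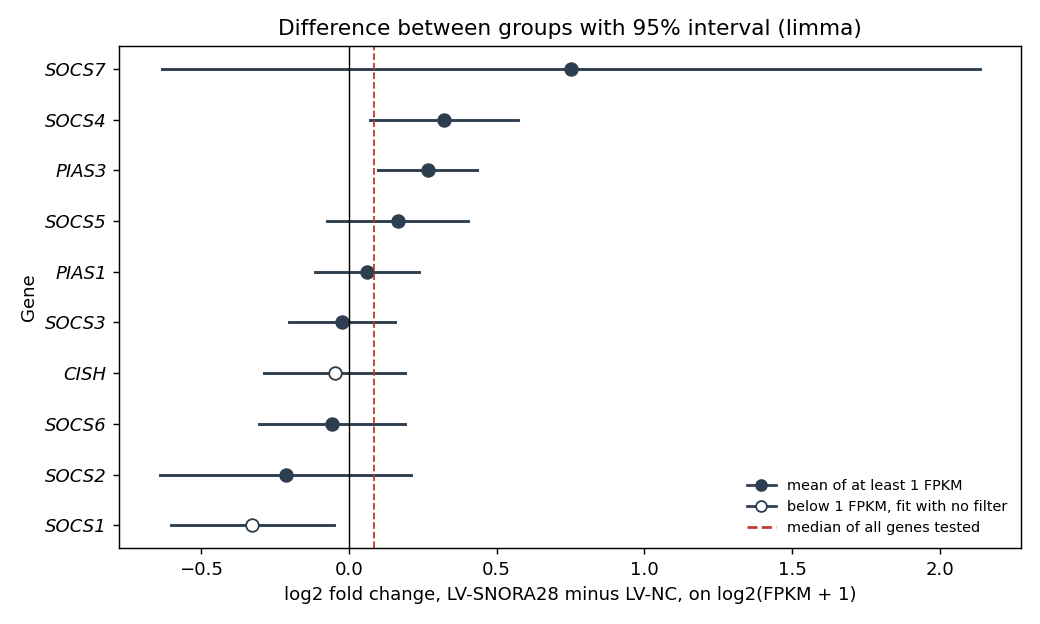
Log2 fold change of each inhibitor, LV-SNORA28 minus LV-NC, on the log2(FPKM + 1) scale (horizontal axis), as points with 95% intervals from limma and a dashed line at the median of all genes tested (0.09). Open points mark the 2 genes below 1 FPKM. The intervals of PIAS3, SOCS4 and SOCS1 exclude 0 before adjustment, and that of SOCS7 is the widest, from -0.63 to 2.13.

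SOCS1 and SOCS3 are the members that inhibit JAK kinases directly, SOCS3 while docked on receptors such as gp130. SOCS1 (ENSG00000185338; GRCh38 chromosome 16, 11254417 to 11256204, minus strand, 1 coding exon) stood at 1.06, 0.97 and 0.83 FPKM after LV-NC, and LV-SNORA28 gave 0.42, 0.54 and 0.72 FPKM. Each LV-SNORA28 library lay below each LV-NC library. The log2 fold change was -0.33 (95% interval -0.60 to -0.05). It did not pass, as its adjusted p was 0.261 in limma. Without a pseudocount, the mean in LV-SNORA28 was 0.587 times that in LV-NC. The paper named SOCS1 as a candidate from its RNA-seq of SNORA28 overexpression. By qRT-PCR, it reports significantly lower SOCS1 in HCT116 cells with SNORA28 overexpressed, and the opposite in HT29 cells with SNORA28 knocked down. It also reports lower SOCS1 protein after either knockdown or overexpression, and so does not take SOCS1 as a key mediator. A pseudocount of 0.1 in place of 1 gave a log2 fold change of -0.69 with an unadjusted p of 0.0252 in limma. That meets the double threshold named above, whereas the adjusted p of 0.254 in limma did not pass and ranged from 0.138 to 0.465 over all alternatives. The whole of SOCS1 lies within RMI2 on the opposite strand, and whether fragments were assigned by strand is not given in the sources used here. RMI2 had 2.96 ± 0.375 FPKM in LV-NC (SD, n = 3), and 3.14 ± 0.350 FPKM after LV-SNORA28 (SD, n = 3), and its groups overlapped.

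SOCS3 (ENSG00000184557; chromosome 17, 78356778 to 78360077, minus strand) gave values of 7.89, 8.67 and 7.83 FPKM under LV-NC, against 8.16, 7.42 and 8.4 FPKM under LV-SNORA28. The groups were interleaved. The log2 fold change was -0.02 (95% interval -0.20 to 0.16, adjusted p 0.877 in limma), so a change of 1.5 times in either direction lies outside the interval. SOCS3 was also 1 of the less variable members, with a coefficient of variation of 5.76% in LV-NC and 6.39% in LV-SNORA28.

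CISH and SOCS2 bind the receptors of hormones and cytokines that signal through STAT5. CISH (ENSG00000114737; chromosome 3, 50606489 to 50611774, minus strand), whose promoter holds the 4 TTCNNNGAA copies shown above, read 0.91, 1.05 and 0.98 FPKM with LV-NC, and 1.06, 0.85 and 0.84 FPKM with LV-SNORA28. The groups overlapped, and the log2 fold change was -0.05 (95% interval -0.29 to 0.19, adjusted p 0.844 in limma with no filter). It overlaps MAPKAPK3, on the opposite strand, by 255 bases, and MAPKAPK3 had 27.7 ± 1.31 FPKM in LV-NC (SD, n = 3), and 25.4 ± 1.41 FPKM after LV-SNORA28 (adjusted p 0.302 in limma). The groups of MAPKAPK3 did not overlap, with LV-SNORA28 lower. As for SOCS1, whether fragments were assigned by strand is not given. SOCS2 (ENSG00000120833; chromosome 12, 93569814 to 93583487, plus strand) stood at 1.46, 1.35 and 2.68 FPKM after LV-NC, and LV-SNORA28 gave 1.43, 1.45 and 1.29 FPKM. LV-NC replicate 3 stood apart, and the other 5 libraries lay between 1.29 and 1.46 FPKM. SOCS2 had a log2 fold change of -0.21 (SE 0.18, adjusted p 0.479 in limma) and of -0.01 without LV-NC replicate 3. SOCS2-AS1, an antisense RNA that overlaps SOCS2 by 1955 bases, had 0.46 FPKM there, beside 0.37 and 0.42 FPKM for the remaining LV-NC replicates.

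SOCS4 and SOCS5 are close relatives with long amino-terminal regions that have been tied to epidermal growth factor receptor turnover. SOCS4 (ENSG00000180008; chromosome 14, 55027230 to 55049489, plus strand) gave values of 5.07, 3.91 and 4.92 FPKM under LV-NC, against 5.91, 5.61 and 6.54 FPKM under LV-SNORA28. The 3 LV-SNORA28 libraries lay above the 3 LV-NC libraries. The log2 fold change was 0.32 (95% interval 0.07 to 0.57), with an adjusted p of 0.107 in limma. Leaving out any 1 library gave between 0.23 and 0.38. SOCS5 (ENSG00000171150; chromosome 2, 46698952 to 46780245, plus strand) read 3.43, 2.63 and 3.12 FPKM with LV-NC, and 3.85, 3.3 and 3.48 FPKM with LV-SNORA28. Here the groups overlapped, and the log2 fold change was 0.17 (95% interval -0.07 to 0.40, adjusted p 0.328 in limma). Of 8 annotated processed pseudogenes of SOCS2, SOCS5 and SOCS6, SOCS5P4 had the highest value, at 0.33 FPKM in LV-NC replicate 1.

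SOCS6 and SOCS7 bind insulin receptor substrates and receptor tyrosine kinases in addition to cytokine pathway proteins. SOCS6 (ENSG00000170677; chromosome 18, 70289045 to 70330199, plus strand) stood at 15.33, 12.34 and 14.17 FPKM after LV-NC, and LV-SNORA28 gave 12.58, 12.59 and 14.88 FPKM. The groups overlapped, with a log2 fold change of -0.06 (95% interval -0.30 to 0.19, adjusted p 0.758 in limma). SOCS7 (ENSG00000274211; chromosome 17, 38351844 to 38405593, plus strand) gave values of 1.49, 0.8 and 1.09 FPKM under LV-NC, against 1.14, 1.16 and 8.66 FPKM under LV-SNORA28. The value of LV-SNORA28 replicate 3 was 7.62 times the mean of the other 5 libraries and 5.81 times the next highest. SOCS7 had a log2 fold change of 0.75 (SE 0.58, adjusted p 0.446 in limma) with that library and 0.03 (adjusted p 0.942 in limma) without it.

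The high SOCS7 value was not shared by the genes around it. Within 300000 bases on either side, 8 other entries had a mean of at least 1 FPKM. Their value in LV-SNORA28 replicate 3 was between 0.812 and 1.37 times the mean of the other 5 libraries. MRPL45, a mitochondrial ribosomal protein gene that lies 28627 bases upstream, was listed at 52.17 FPKM in that library, and ARHGAP23, 13687 bases downstream, at 3.47 FPKM. A single library at least 5 times above the next highest was found for 15 of the 12076 genes tested (0.124%), of which 2 had LV-SNORA28 replicate 3 as the high library. That limit was chosen after the values of SOCS7 were seen. SOCS7 has 5 annotated transcripts of 480 to 8258 nt, and the deposited tables give 1 value per gene, so the transcript behind the value is not known.

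**Figure D3:**
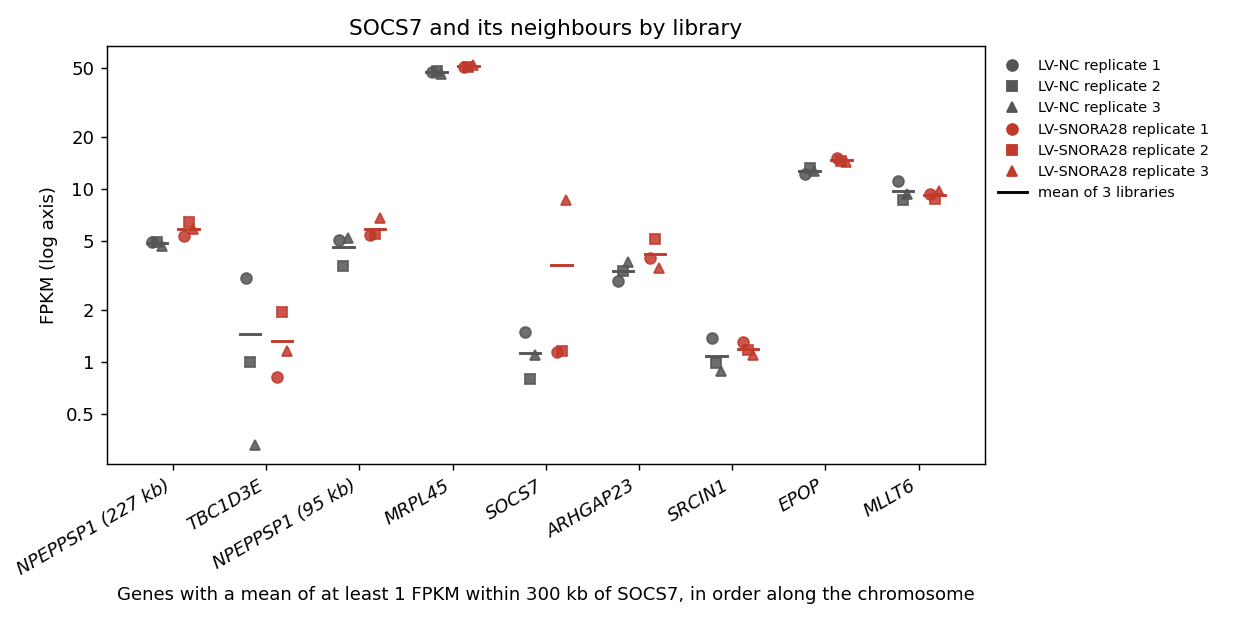
FPKM (vertical axis, log scale) of SOCS7 and of the 8 entries with a mean of at least 1 FPKM within 300 kb, in chromosomal order, by library, with gray for LV-NC, red for LV-SNORA28 and bars for group means. In LV-SNORA28 replicate 3 (red triangles) SOCS7 alone lies far above the other libraries, at 8.66 FPKM.

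Summed over the 8 SOCS and CISH genes, the level was 36.64, 31.72 and 35.62 FPKM in LV-NC and 34.55, 32.92 and 44.81 FPKM in LV-SNORA28. Without SOCS7 the sum was 33.5 ± 2.28 FPKM in LV-NC (SD, n = 3), and 33.8 ± 2.22 FPKM after LV-SNORA28 (SD, n = 3), so the means differed by less than the spread of the libraries. Of the sum that includes SOCS7, SOCS6 took between 33.2% and 41.8% in each library. SOCS1 took between 2.33% and 3.06% of it in LV-NC and between 1.22% and 1.64% in LV-SNORA28. In LV-SNORA28 replicate 3, SOCS7 took 19.3% of that sum, which lowers the shares of the other genes there. In bulk RNA a lower level in every cell and fewer cells with the transcript cannot be told apart.

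PIAS3 and PIAS1 are the nuclear inhibitors, and PIAS3 is known for binding STAT3. PIAS3 (ENSG00000131788; chromosome 1, 145848522 to 145859836, minus strand) read 8.13, 7.41 and 7.07 FPKM with LV-NC, and 9.36, 9.04 and 9.37 FPKM with LV-SNORA28. All LV-SNORA28 libraries lay above all LV-NC libraries. The log2 fold change was 0.27 (95% interval 0.10 to 0.43), and the adjusted p of 0.0635 in limma was the smallest of the 10 members. Over the alternative fits that adjusted p ranged from 0.0498, when 6241 genes whose mean reached 5 FPKM were tested, to 0.176. PIAS1 (ENSG00000033800; chromosome 15, 68054309 to 68198603, plus strand) stood at 3.89, 3.57 and 3.55 FPKM after LV-NC, and LV-SNORA28 gave 4.07, 3.64 and 3.92 FPKM. The groups overlapped, and the log2 fold change was 0.06 (95% interval -0.11 to 0.24, adjusted p 0.622 in limma).

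The 2 remaining genes of the PIAS family did not pass either. PIAS4 gave values of 8.27, 8.31 and 8.1 FPKM under LV-NC, against 6.96, 7.89 and 7.02 FPKM under LV-SNORA28, so that its groups did not overlap in the direction opposite to PIAS3 (log2 fold change -0.16, adjusted p 0.2 in limma). PIAS2 had 1.22 ± 0.02 FPKM in LV-NC (SD, n = 3), and 1.33 ± 0.0721 FPKM after LV-SNORA28 (SD, n = 3). Its groups did not overlap, with LV-SNORA28 higher, and the adjusted p was 0.598 in limma. The 3 genes whose log2 values over the 6 libraries were most like those of PIAS3, among the genes tested, were SOS1 (Pearson r = 0.995), KRT23 (0.994) and VTI1A (0.993). These r values describe 6 libraries in 2 groups and are the highest of 12076 genes.

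The partners through which the inhibitors act were examined next. Of 9 genes of the SOCS box ubiquitin ligase (elongins, cullin 5 and their RING and NEDD8 partners), 9 were tested and 0 passed, against 8.91% of all genes. The smallest adjusted p in limma was 0.0523, for ARIH2, a ligase that works with neddylated cullin 5, at 13.5 ± 0.275 FPKM in LV-NC (SD, n = 3), and 15.9 ± 0.230 FPKM after LV-SNORA28 (SD, n = 3). It was followed by ELOC, elongin C, at 0.136 (log2 fold change 0.34). At an unadjusted p below 0.05 there were 2 of these 9 genes, against 28.0% of all genes. Of 29 other genes with a SOCS box, 14 were tested and 0 passed, with 2 at an unadjusted p below 0.05, namely ASB7 (log2 fold change 0.24, adjusted p 0.110 in limma) and RAB40B (0.32, adjusted p 0.128 in limma). Of 18 genes of SUMO conjugation, 17 were tested and 1 passed, UBA2, a subunit of the SUMO-activating enzyme, and 9 of the 17 had an unadjusted p below 0.05, against the same 8.91% and 28.0% of all genes. UBA2 rose from 21.5 ± 1.24 FPKM (SD, n = 3) to 28.3 ± 1.05 FPKM (SD, n = 3), a log2 fold change of 0.38 (adjusted p 0.0221 in limma). The median log2 fold changes of these 3 lists were 0.14, 0.15 and 0.19, beside 0.09 for all genes tested.

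The kinases, factors and receptors that the inhibitors restrain were compared in the same fit. Of 10 JAK and STAT genes, 7 were tested and 1 passed, STAT3, which was higher. STAT3 read 6.52, 6.06 and 6.05 FPKM with LV-NC, and 9.83, 8.97 and 9.95 FPKM with LV-SNORA28. STAT3 had a log2 fold change of 0.55 (adjusted p 0.00986 in limma). Of 19 cytokine receptor genes, 13 were tested and 2 rose, OSMR and IFNAR1. OSMR, the oncostatin M receptor, which pairs with gp130, had 6.53 ± 0.907 FPKM in LV-NC (SD, n = 3), and 12.3 ± 1.10 FPKM after LV-SNORA28 (log2 fold change 0.83, adjusted p 0.0112 in limma). IFNAR1 is a chain of the type I interferon receptor (log2 fold change 0.40, adjusted p 0.0391 in limma). Of 13 other JAK-STAT inhibitors, 9 were tested and 1 rose, PTPN11, the phosphatase SHP2, which besides dephosphorylating STATs transmits RAS signals. PTPN11 had 31.9 ± 2.45 FPKM in LV-NC (SD, n = 3), and 43.3 ± 3.86 FPKM after LV-SNORA28 (adjusted p 0.0358 in limma). Before adjustment, a p below 0.05 was found for 1 of 7 JAK and STAT genes, 4 of 13 receptors and 3 of 9 other inhibitors. The shares over all genes were 8.91% after adjustment (6.81% higher) and 28.0% before it. The median log2 fold changes were 0.01 for JAK and STAT genes, 0.16 for receptors and 0.17 for other inhibitors.

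Of 28 further genes known as STAT targets, 18 were tested and 3 passed, 2 higher and 1 lower, against 8.91% of all genes (6.81% higher, 2.1% lower). At an unadjusted p below 0.05 there were 8 of the 18, against 28.0%. JUNB, an AP-1 subunit, had 29.4 ± 2.23 FPKM in LV-NC (SD, n = 3), and 45.1 ± 0.714 FPKM after LV-SNORA28 (log2 fold change 0.60, adjusted p 0.00760 in limma). PIM2, a survival kinase, had 2.46 ± 0.111 FPKM in LV-NC (SD, n = 3), and 4.19 ± 0.0115 FPKM after LV-SNORA28 (log2 fold change 0.58, adjusted p 0.00741 in limma). CCND1, cyclin D1, fell from 181 ± 8.11 FPKM (SD, n = 3) to 123 ± 0.920 FPKM (log2 fold change -0.55, adjusted p 0.00583 in limma). The median of this list was 0.19.

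Ratios of STAT3 to an inhibitor were then formed within each library, where the scaling of the library cancels. The pairs were chosen after the values of these genes were seen. STAT3 to SOCS3 was 0.826, 0.699 and 0.773 in LV-NC and 1.20, 1.21 and 1.18 in LV-SNORA28. For STAT3 to PIAS3 the LV-NC mean was 0.825 ± 0.0276 (SD, n = 3), against 1.03 ± 0.0373 (SD, n = 3) for LV-SNORA28. STAT3 to SOCS1 was 6.15, 6.25 and 7.29 in LV-NC and 23.4, 16.6 and 13.8 in LV-SNORA28. None of the 3 ratios given here had overlapping groups. All 3 share STAT3, whose own groups did not overlap, so each ratio holds that difference. The ratios to SOCS1 and PIAS3 also hold the differences of these inhibitors, lower for SOCS1 and higher for PIAS3. Each ratio had a p of 0.1 in an exact permutation test. That is the smallest value 3 against 3 libraries can give, so the test cannot decide.

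**Figure D4:**
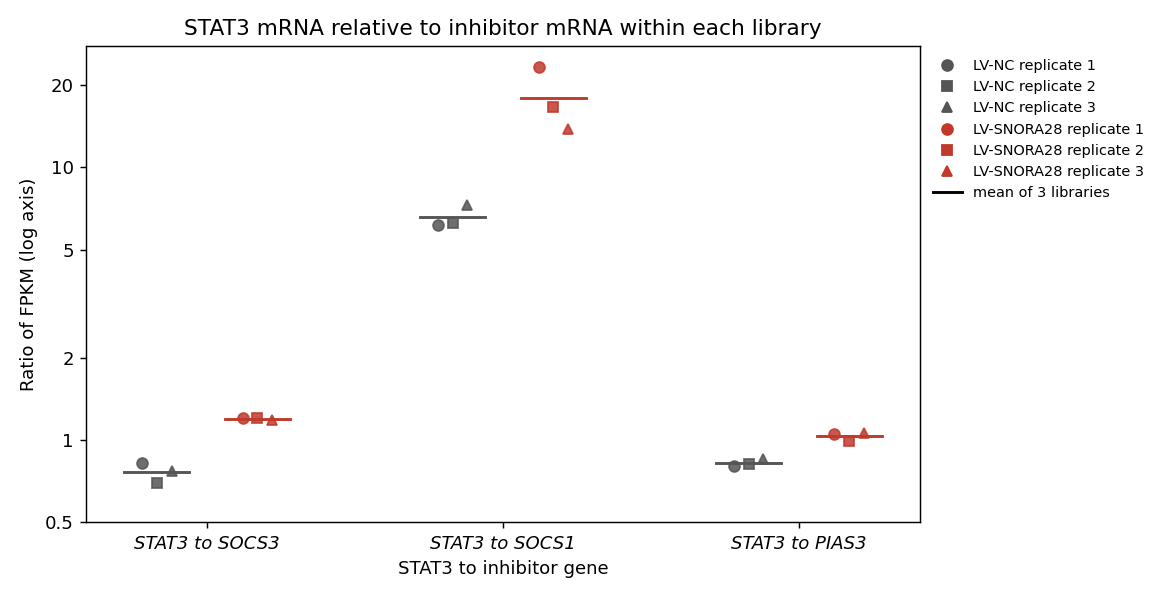
Ratio of the FPKM of STAT3 to that of an inhibitor gene within each library (vertical axis, log scale), with gray for LV-NC, red for LV-SNORA28, a symbol per replicate and bars for group means. All 3 ratios are higher in each LV-SNORA28 library than in each LV-NC library, and STAT3 to SOCS1 spans 13.8 to 23.4 in LV-SNORA28.

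The share of mitochondrial transcripts moved with the groups, so the members were also compared after scaling to the nuclear FPKM sum. The log2 fold changes became 0.24 for PIAS3, 0.30 for SOCS4 and -0.34 for SOCS1, with adjusted p-values of 0.108, 0.156 and 0.280 in limma. With quantile normalization they were 0.17, 0.22 and -0.39, with adjusted p-values of 0.171, 0.184 and 0.188 in limma. Over the 10 members, 7 had a 95% interval that lay within a change of 1.5 times in both directions on the log2(FPKM + 1) scale, and 6 with a pseudocount of 0.1. With a pseudocount of 1, the 3 others were SOCS1, SOCS2 and SOCS7. For these a change of 1.5 times in at least 1 direction lies inside the interval. With a pseudocount of 0.1 that also held for SOCS4 (95% interval 0.08 to 0.67).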

How the data were processed

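Poly(A)-selected, dUTP-stranded libraries of HCT116 cells were sequenced as paired ends. For each library the authors deposited FPKM values beside Ensembl identifiers. The submitters' processing notes list cutadapt 1.9, HISAT2 2.2.1, StringTie 2.1.6 and hg38. The annotation release and any filter are not given in the sources used here. Read depth was unknown, so no counting interval was attached. Symbols came from GENCODE release 44 (GRCh38) for 60401 of 60612 identifiers.

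On the log2(FPKM + 1) scale, 12076 genes whose mean reached 1 FPKM were fitted with limma 3.58.1 (R 4.3.3, eBayes with trend), tested on simulated data. The tests were two-sided, with Benjamini-Hochberg adjustment over every gene in a fit. Members below the filter were read from a fit of 32761 genes. Motifs and ratios were computed in Python 3.11.15. All members were named; of each list, up to 4 genes that passed, otherwise the 2 with the smallest adjusted p, and the 3 genes most like the member with the smallest adjusted p. The members and lists were chosen with earlier results of these data known. A planned comparison of the proteins was not run, and 1 gene of the JAK and STAT list is not reported here. Alternatives were other filters, a pseudocount of 0.1, no trend, quantile and nuclear scaling, the replicate number as a block and each library left out.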

Additional observations from a re-analysis of the deposited data

How the results depend on the processing

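Of 130 log2 fold changes of the 10 members under 13 alternatives, 125 kept their direction and their side of the threshold, 4 changed sign and 1 came to pass. With other filters, no trend or the replicate block, a log2 fold change is the same as in the main fit by construction. Only its p-value could move there, and for SOCS1 and CISH the other filters repeat the main values. The one that passed was PIAS3 when only genes whose mean reached 5 FPKM were tested, where the members called became 1. The members past the threshold of the study became 1, SOCS1, with a pseudocount of 0.1. With 1 library left out, both counts ranged from 0 to 0. The signs that changed were those of PIAS1 (-0.0372 with quantile normalization), SOCS6 (0.00859 without LV-NC replicate 1) and SOCS3 (0.0200 without LV-NC replicate 2 and 0.0246 without LV-SNORA28 replicate 2), none of them past the threshold. With 1 library left out, SOCS3 ranged from -0.0548 to 0.0246 and SOCS6 from -0.137 to 0.00859.

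Over all genes, 1076 had an adjusted p below 0.05 in limma. The number was 397 with no filter, where 32761 genes were tested, and ranged from 278 to 629 with each of the 6 libraries left out in turn. Of the 1076 genes 822 were higher and 254 lower, against 451 higher and 375 lower after quantile normalization. Libraries with the same replicate number share only that number (correlations of deviations from the group means of -0.0441, 0.0914 and 0.00983 across genes), and with the replicate block 510 genes and no member (0) passed, with 2 members, PIAS3 and SOCS4, at an unadjusted p below 0.05. The depth behind the FPKM values is unknown, so the counting error of low members such as SOCS1 and CISH cannot be given.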

Other observations

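SOCS2 and SOCS7 were the members with the largest spread within groups. The within-group SD on the log2(FPKM + 1) scale was 0.90 for SOCS7, above 99.1% of the 12076 genes tested, and 0.25 for SOCS2, above 85.5% of them. In both genes 1 library stood apart, LV-SNORA28 replicate 3 for SOCS7 and LV-NC replicate 3 for SOCS2. PIAS1, at 0.06, and PIAS3, at 0.07, were among the steadier genes, above 12.3% and 15.4% of the genes tested. The SD of PIAS3 was smaller than the difference between its groups, 0.27. The same held for SOCS1, SOCS4, SOCS5 and PIAS1, and this SD already enters the p-value in limma.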
